A study of Vitis vinifera with 204 samples.

Results

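The 8 genes described here code for the enzymes that carry a flavonoid from its first ring closure to the coloured anthocyanidin. They were chosen by gene identifier and enzyme role, with no measured value in the rule, and make up 8 of the 29971 gene IDs measured. Chalcone synthase was represented by VIT_14s0068g00930, VIT_14s0068g00920 and VIT_05s0136g00260, chalcone isomerase by VIT_13s0067g03820, and flavanone 3-hydroxylase by VIT_04s0023g03370 and VIT_18s0001g14310. Dihydroflavonol 4-reductase was VIT_18s0001g12800 and leucoanthocyanidin dioxygenase was VIT_02s0025g04720. The roles are those of the rule, since no annotation of these IDs was used here, and their sequences are not shown. All 8 passed the filter of at least 1 RPKM in at least 3 libraries, as did 20770 genes in all. RPKM is a read density per gene length and library size, so levels may be set side by side between genes.

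The berries were those of Vitis vinifera Cabernet Sauvignon, clone FPS 8 on 5C rootstock, from 1 vineyard near Modesto. After fruit set, clusters had been taken off so that either 50% of the crop load was gone (one cluster left per shoot) or 75% (one cluster left on every other shoot); unthinned vines were not analysed here. RNA came from pericarp, the skin and flesh, of pools of 60 berries from 6 clusters, ground with the seeds removed. In 2012 the 12 time points spanned day -28 to 80 counted from veraison, the softening and colouring of the berry. The 10 of 2013 spanned day -20 to 43, and the 12 of 2014 spanned day -14 to 63. The 3 libraries that share a season, a day and an intensity are called a cell, and there are 68 cells and 102 libraries per intensity. The pools came from blocks of vines in 3 rows per treatment, and the p-values rest on how these pools vary.

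Flavonoids begin when chalcone synthase condenses a coumaroyl unit with malonyl units into a chalcone, which chalcone isomerase closes into a flavanone. Flavanone 3-hydroxylase then makes a dihydroflavonol, dihydroflavonol 4-reductase reduces it to a leucoanthocyanidin, and leucoanthocyanidin dioxygenase oxidises that to an anthocyanidin. In red grapes the end products are tannins, laid down mostly in young berries, flavonols, and the anthocyanins that colour the skin from veraison on.

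Summed RPKM per library lay between 817623 and 1105136 (median 925588), and read depth is unknown. A second form of the RPKM values, in which 20 or more of 9114 otherwise steady genes are listed under 0.5 RPKM, was seen in 83 libraries: all 72 of 2014 and 11 of 2013. No enzyme gene was listed at 0 in any library, and the lowest value was 2.07 RPKM. A fit with the form as a covariate rests on the 2 cells of 2013 that hold both forms, the 75% arm on days -20 and -6. In both cells replicate 2, the library of the second form, was the highest of the 3 in 8 of 8 enzyme genes. Libraries of the first form did the same in other green cells. Among them were replicate 2 on day -20 and replicate 3 on day -13 of 2013, both in the 50% arm. The identity of the tissue could not be checked against markers, since no ID was paired with a name. In pooled tissue, fewer cells that express a gene and less RNA per cell cannot be told apart.

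In outline, the largest rises at the onset of ripening were those of the chalcone synthase VIT_05s0136g00260, the chalcone isomerase and the leucoanthocyanidin dioxygenase, and these 3 genes were lower again towards harvest. The chalcone synthase VIT_14s0068g00920 and both flavanone 3-hydroxylases rose at onset and were not called lower afterwards in the values as deposited. The dihydroflavonol 4-reductase changed little at onset and had its highest values at the end of 2012. The chalcone synthase VIT_14s0068g00930 had the lowest level of the 8 genes, with a mean of 10.1 RPKM ± 5.23 (SD, all libraries).

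**Figure D1:**
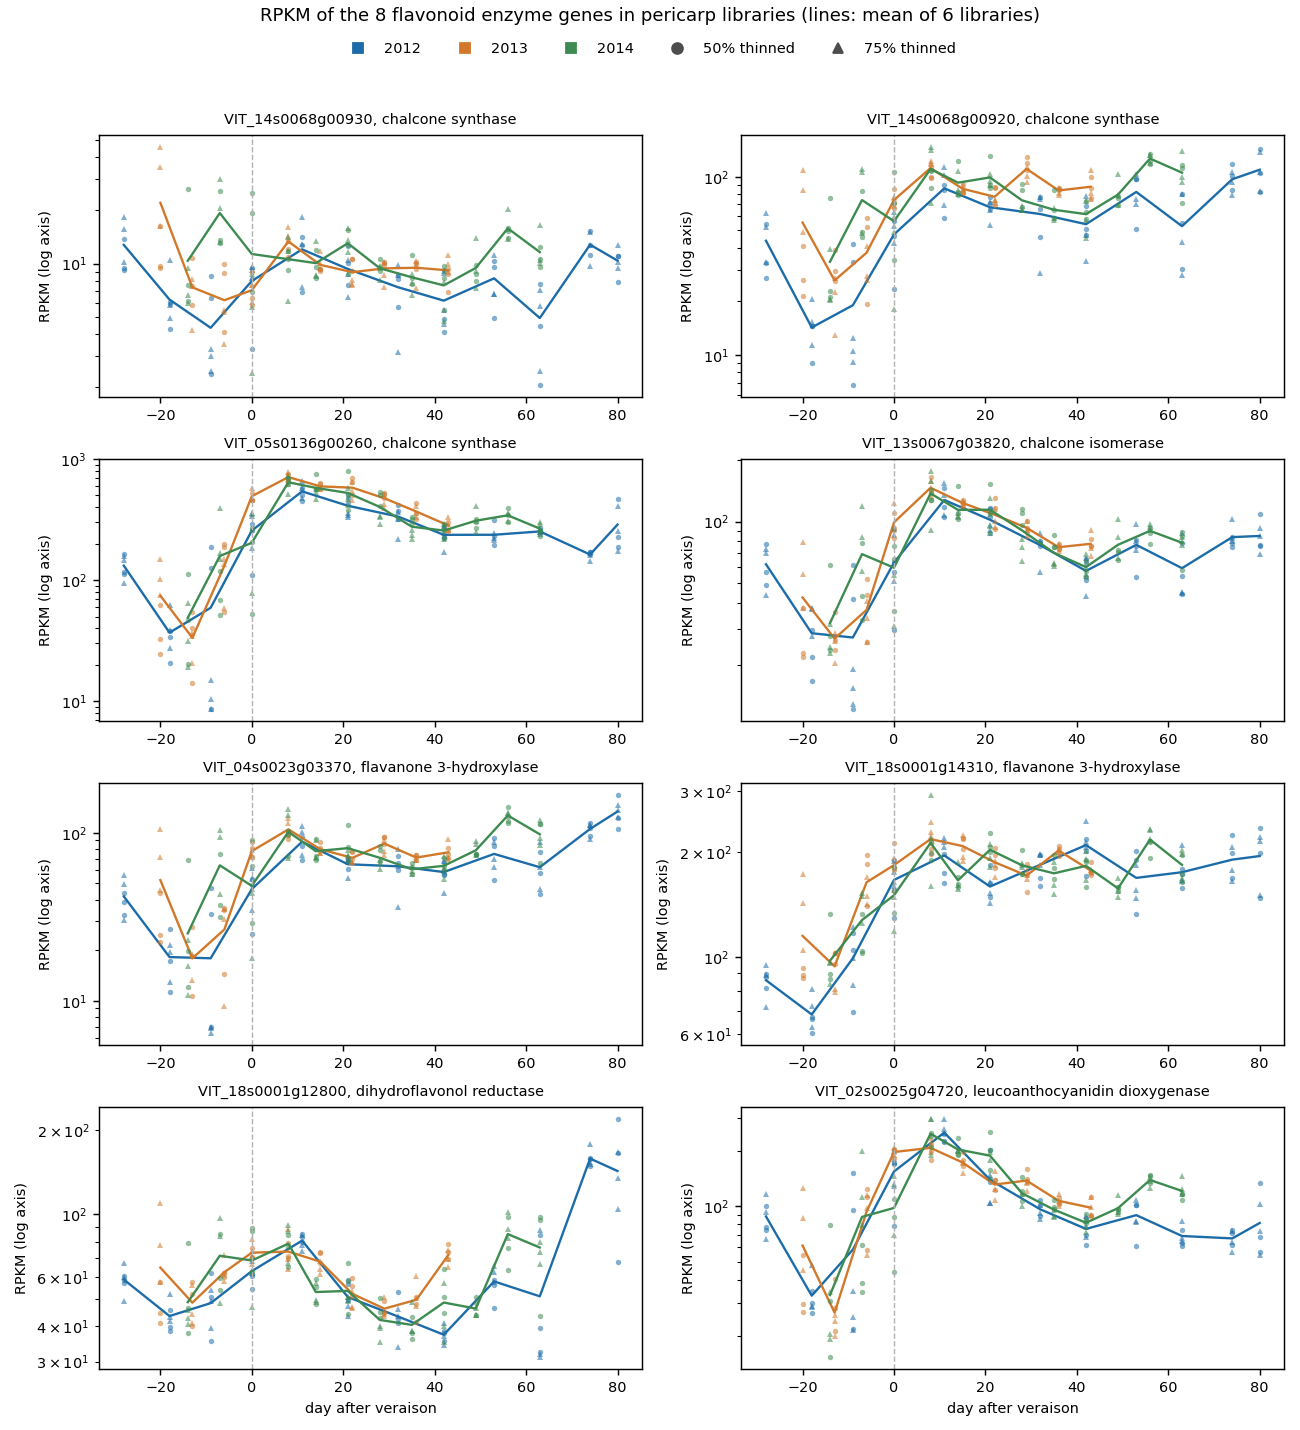
RPKM (log axis) of each enzyme gene against the day after veraison, with 1 point per library, circles for 50% and triangles for 75% thinned vines, colours for the season and lines through the mean of 6 libraries. VIT_05s0136g00260, VIT_13s0067g03820 and VIT_02s0025g04720 peak on day 8 or 11 of every season, while VIT_18s0001g12800 peaks on day 74 of 2012, day 8 of 2013 and day 56 of 2014.

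The first question was how the enzymes move from green to ripening berries. Onset was taken as days 8 to 22 minus all days before veraison, averaged over the seasons. In limma, 7 of the 8 genes were higher after onset and none was lower; of all genes tested 28.4% were called higher and 60% lower. The median log2 change of the 8 genes was 1.50 against -0.24 over all genes. All fold and log2 changes are on the log2(RPKM + 1) scale, which understates changes of low genes. The all-gene median depends on the scaling, moving by 0.18 to -0.06 with median ratio scaling and by 0.33 to 0.09 with quantile normalization. The calls over all genes move with it, from 5909 higher and 12463 lower as deposited to 8367 and 10150 with median ratio scaling and 10488 and 8234 with quantile normalization.

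VIT_05s0136g00260, the chalcone synthase with the highest level, ran from 8.67 to 391 RPKM in green berries, with a median of 60.4 (n = 48 libraries). On days 8 to 22 it ran from 333 to 798 RPKM, with a median of 574 (n = 48). In 2012 and 2013 all 12 and all 18 early ripening libraries lay above every green library of the season, and in 2014 17 of 18 did. Its log2 change was 3.18 (SE 0.11, adjusted p = 4.39e-60 in limma), or 9.05-fold, the largest of the 8. By season the change was 3.22 in 2012, 3.34 in 2013 and 2.98 in 2014.

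The neighbouring pair of chalcone synthases moved less. VIT_14s0068g00920 went from a median of 28.7 RPKM (6.83 to 111, n = 48) in green berries to 86.5 (53.5 to 147, n = 48), and the ranges overlapped in every season. Its log2 change was 1.43 (SE 0.09, adjusted p = 1.66e-32 in limma). VIT_14s0068g00930 had a median of 8.72 RPKM (2.39 to 45.6) in green berries and 10.6 (6.13 to 18.2) afterwards, with no early library above all green ones in any season. Its log2 change of 0.16 (SE 0.09, adjusted p = 0.0688 in limma) missed the threshold. It was 0.38 (adjusted p = 2.03e-05) with median ratio scaling, 0.60 (adjusted p = 4.57e-10) with quantile normalization, and 0.04 to 0.60 over all alternatives. No source used here tells how reads shared by these similar neighbouring genes were split, so the division between the pair is uncertain.

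The chalcone isomerase VIT_13s0067g03820 rose from a median of 35.0 RPKM (12.3 to 119, n = 48) to 119 (87.5 to 177, n = 48). The groups did not overlap in 2012 or 2013, and in 2014 8 of 18 early libraries lay above all green ones. Its log2 change was 1.68 (SE 0.07, adjusted p = 2.73e-50 in limma).

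The flavanone 3-hydroxylases rose unequally. VIT_04s0023g03370 went from a median of 27.0 RPKM (6.45 to 106, n = 48) to 77.5 (53.9 to 138, n = 48), a log2 change of 1.57 (SE 0.09, adjusted p = 1.79e-37 in limma). VIT_18s0001g14310 started higher, at a median of 96.6 RPKM (60.6 to 196), and reached 195 (143 to 292), a log2 change of 0.88 (SE 0.04, adjusted p = 1.5e-51 in limma). All early libraries of 2012 and 2014 lay above all green ones for VIT_18s0001g14310, and 11 of 18 did in 2013. The highest green library of 2013 was of day -6, which ran from 140 to 196 RPKM. Day -20 ran from 87.0 to 173 and day -13 from 79.1 to 103.

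The 2 last steps differed from each other in their values. The dihydroflavonol 4-reductase VIT_18s0001g12800 had a median of 53.8 RPKM (35.4 to 110, n = 48) before veraison and 62.7 (43.6 to 92.0, n = 48) on days 8 to 22, with no early library above all green ones in 2013 or 2014. Its log2 change was 0.20 (SE 0.06, adjusted p = 0.000641 in limma), and by season 0.36 in 2012, 0.16 in 2013 and 0.08 in 2014, of which the first passed the threshold. The leucoanthocyanidin dioxygenase VIT_02s0025g04720 went from a median of 42.8 RPKM (15.4 to 200) to 195 (105 to 296), a log2 change of 1.92 (SE 0.08, adjusted p = 6.79e-52 in limma). In 2013, 15 of 18 early libraries lay above all green ones, against 7 of 12 in 2012 and 9 of 18 in 2014.

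By season, 8 genes were called higher at onset in 2012, where 23.3% of all genes were, 6 in 2013 (29.9%) and 6 in 2014 (24.9%). VIT_14s0068g00930 and the dihydroflavonol 4-reductase missed the threshold in 2013 and 2014. A moderated F test of the difference between the seasons called 4 of the 8 genes, against 75.8% of all genes tested. VIT_14s0068g00930 had log2 changes of 0.54, 0.16 and -0.21 in 2012, 2013 and 2014 (adjusted p = 0.00564 in limma), and VIT_14s0068g00920 had 1.80, 1.36 and 1.12 (adjusted p = 0.0156). VIT_18s0001g14310 had 1.08, 0.77 and 0.79 (adjusted p = 0.00146), and the chalcone isomerase VIT_13s0067g03820 1.73, 1.87 and 1.43 (adjusted p = 0.0438). The call of the isomerase was lost without replicate 1 (adjusted p = 0.659) and without replicate 2 (0.0717), and that of VIT_14s0068g00920 without replicate 1 (0.111).

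**Figure D2:**
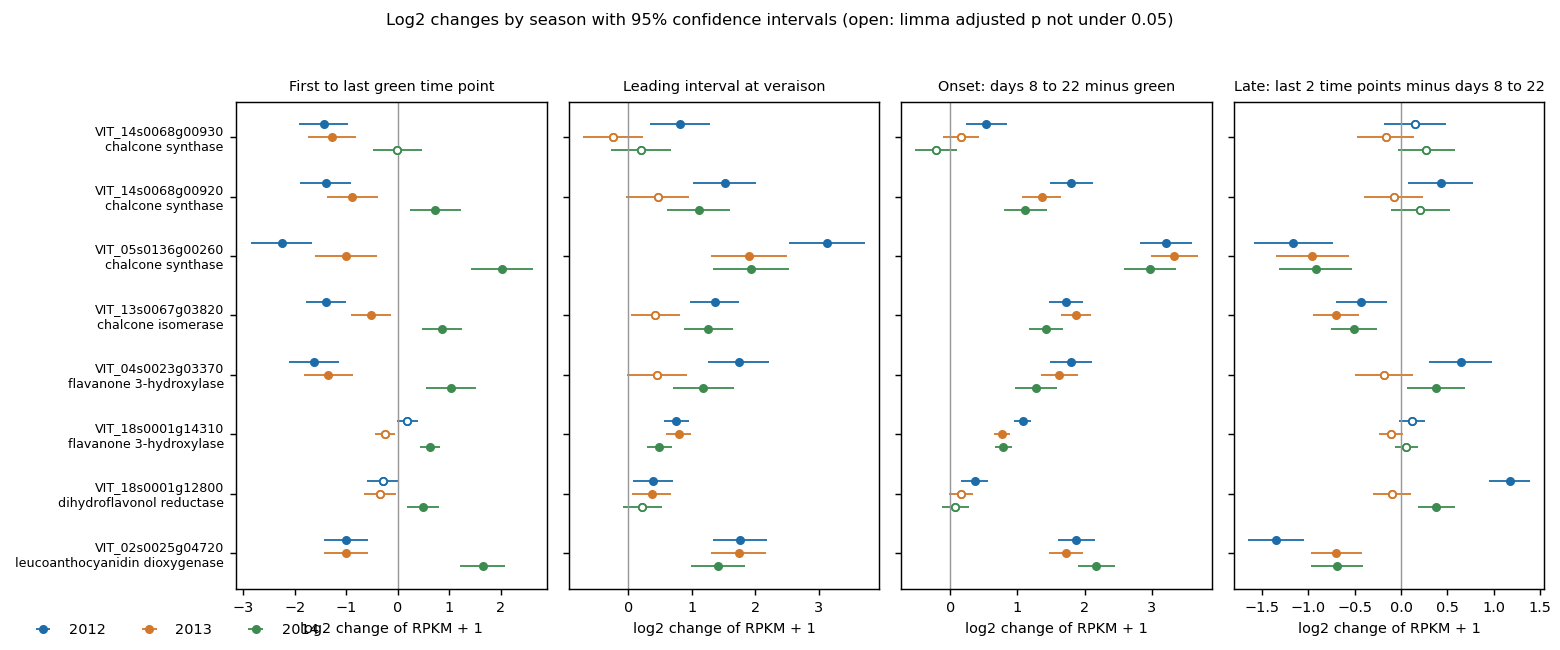
Log2 change of RPKM + 1 of each enzyme gene in 4 steps of development, with 1 point per season and bars for the 95% confidence interval; open points missed the limma threshold. The onset changes of VIT_05s0136g00260 lie between 2.98 and 3.34. The green stage panel spans unlike days in each season, with negative values in 2012 and 2013 and positive ones in 2014 for most genes.

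Within the green stage the seasons were sampled over unlike days, so season and window cannot be told apart in these changes. The lowest mean of VIT_05s0136g00260 up to day 0 fell on day -18 of 2012, day -13 of 2013 and day -14 of 2014. Between days -28 and -18 of 2012, 8 of 8 genes were lower on the later day, against 22.9% of all genes. VIT_05s0136g00260 had 94.7 to 164 RPKM (median 132) in the 6 libraries of day -28 and 20.7 to 62.0 RPKM (median 36.0) on day -18, without overlap. Its log2 change was -1.86 (SE 0.30, adjusted p = 7.77e-08 in limma). The smallest change was that of VIT_18s0001g14310, -0.32 (SE 0.10, adjusted p = 0.00470 in limma).

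From the first green time point to the last before the leading interval of veraison, 6 genes were lower in 2012 (29% of all genes) and 6 in 2013 (10% of all genes). Without replicate 2 the count of 2013 fell to 2. In 2014, whose sampling began on day -14 and whose last such day was day 0, 7 genes were instead higher (21.9% of all genes), with VIT_05s0136g00260 at 2.02 (SE 0.30) and the leucoanthocyanidin dioxygenase VIT_02s0025g04720 at 1.65 (SE 0.22). Without replicate 3 the count of 2014 was 3. Berries of day 0 of 2014 held 3.04 g/100 ml of sugar ± 1.15 (SD, n = 6), against 1.24 ± 0.45 on day -9 of 2012 and 0.53 ± 0.03 on day -13 of 2013. On the mean of the seasons 5 genes were lower (32.7% of all genes) and VIT_18s0001g14310 was higher (25.4%), with log2 changes from -0.91 for VIT_14s0068g00930 to 0.19. Without replicate 2, 3 genes in all were called.

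Between days -14 and -7 of 2014, in berries still under 1 g/100 ml of sugar, 8 of 8 genes were higher on the later day, against 7.37% of all genes. VIT_05s0136g00260 had 19.1 to 111 RPKM (median 39.2) on day -14 and 51.6 to 391 RPKM (median 134) on day -7, and the ranges overlapped. Its log2 change was 1.64 (SE 0.30, adjusted p = 9.4e-06 in limma). The smallest was that of VIT_18s0001g14310, 0.38 (SE 0.10, adjusted p = 0.00233 in limma). Without replicate 2, 5 genes were called. The genes shared their scatter between replicates before day 8, as given below. Counts of calls within the green stage, here and above, are thus not counts of separate results. The fit shares 1 estimate of the spread over all cells, and replicates scattered more before day 8 than later. Tests within the green stage thus carry a narrower spread than their own replicates show.

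A further comparison took 1 sampling interval per season. From day -9 to day 0 of 2012, day -13 to day -6 of 2013 and day 0 to day 8 of 2014, the intervals in which most genes change, 7 genes were higher on the mean of the seasons, against 19.4% of all genes. The log2 changes were largest for VIT_05s0136g00260, 2.32 (SE 0.18, adjusted p = 1.93e-25 in limma), and the leucoanthocyanidin dioxygenase VIT_02s0025g04720, 1.64 (SE 0.13, adjusted p = 4.78e-25 in limma). They were 0.32 (SE 0.09, adjusted p = 0.000800 in limma) for the dihydroflavonol 4-reductase VIT_18s0001g12800 and 0.25 (SE 0.14, adjusted p = 0.0883 in limma) for VIT_14s0068g00930, the gene that missed the threshold. The calls over all genes were 4025 higher and 11631 lower as deposited, 6629 and 8645 with median ratio scaling, and 8315 and 7034 with quantile normalization. In 2012 the count was 8 (16.7% of all genes), in 2013 it was 4 (20.3%) and in 2014 it was 6 (11.5%). The count of 2013 was 7 with quantile normalization, under which more of all genes were called higher as well. The share of all genes in 2013 alone is not given for that normalization, so the 20.3% is not its background. The 4 of 2013 in the values as deposited were VIT_05s0136g00260, VIT_18s0001g14310, the dihydroflavonol 4-reductase and the leucoanthocyanidin dioxygenase.

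Libraries of the same cell scattered widely before ripening. The coefficient of variation of VIT_05s0136g00260 between the 3 replicates had a median of 43.3% over the 22 cells before day 8 and 11.5% over the 46 cells from day 8 on. The same medians were 39.9% and 10.8% for VIT_04s0023g03370, 15.4% and 8.95% for the dihydroflavonol 4-reductase, and 13.4% and 7.73% for VIT_18s0001g14310. The genes shared this scatter. In 15 of the 22 cells before day 8 a single library was the highest of its cell in at least 7 of the 8 genes, and in 11 of 46 later cells. Pearson's r between the deviations of 2 genes from their cell means ran from 0.69 to 0.94 over the 28 pairs before day 8 (median 0.83, 66 libraries) and from -0.21 to 0.90 later (median 0.47, 138 libraries). These values are descriptions; the points share libraries and their scaling.

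In the 50% arm on day -9 of 2012, VIT_05s0136g00260 stood at 8.68, 126 and 186 RPKM in replicates 1, 2 and 3. The berries of these libraries held 0.75, 1.78 and 1.72 g/100 ml of sugar. The chalcone isomerase VIT_13s0067g03820 stood at 12.3, 42.0 and 61.8 RPKM, and the leucoanthocyanidin dioxygenase VIT_02s0025g04720 at 21.8, 95.1 and 152 RPKM. In this arm the library low in all 3 genes was thus the one with the least sugar. In the 75% arm of that day VIT_05s0136g00260 ran from 8.67 to 15.0 RPKM. There the library with the most sugar, 1.37 g/100 ml, stood at 10.5 RPKM. In the 50% arm on day -14 of 2014, VIT_05s0136g00260 stood at 111, 46.8 and 20.4 RPKM while the sugar was 0.47, 0.50 and 0.50 g/100 ml.

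Plotted on sugar in place of the day, VIT_05s0136g00260 had a mean of 75.1 RPKM ± 71.5 (SD, n = 39 libraries) under 1 g/100 ml and 155 ± 95.4 (n = 15) from 1 to 5. It reached 586 ± 116 (n = 18) from 10 to 15 g/100 ml and came down to 240.3 ± 57.9 (n = 27) from 25 to 30. The leucoanthocyanidin dioxygenase ran alike, from 52.7 RPKM ± 39.0 under 1 g/100 ml to 216 ± 40.0 from 10 to 15 and 88.0 ± 22.5 from 25 to 30. VIT_18s0001g14310 reached 147 RPKM ± 29.3 already between 1 and 5 g/100 ml and had means between 173 and 195 in all higher classes. The dihydroflavonol 4-reductase had 53.7 RPKM ± 17.5 (n = 58) from 20 to 25 g/100 ml and 101 ± 52.2 (n = 27) from 25 to 30, its highest class.

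**Figure D3:**
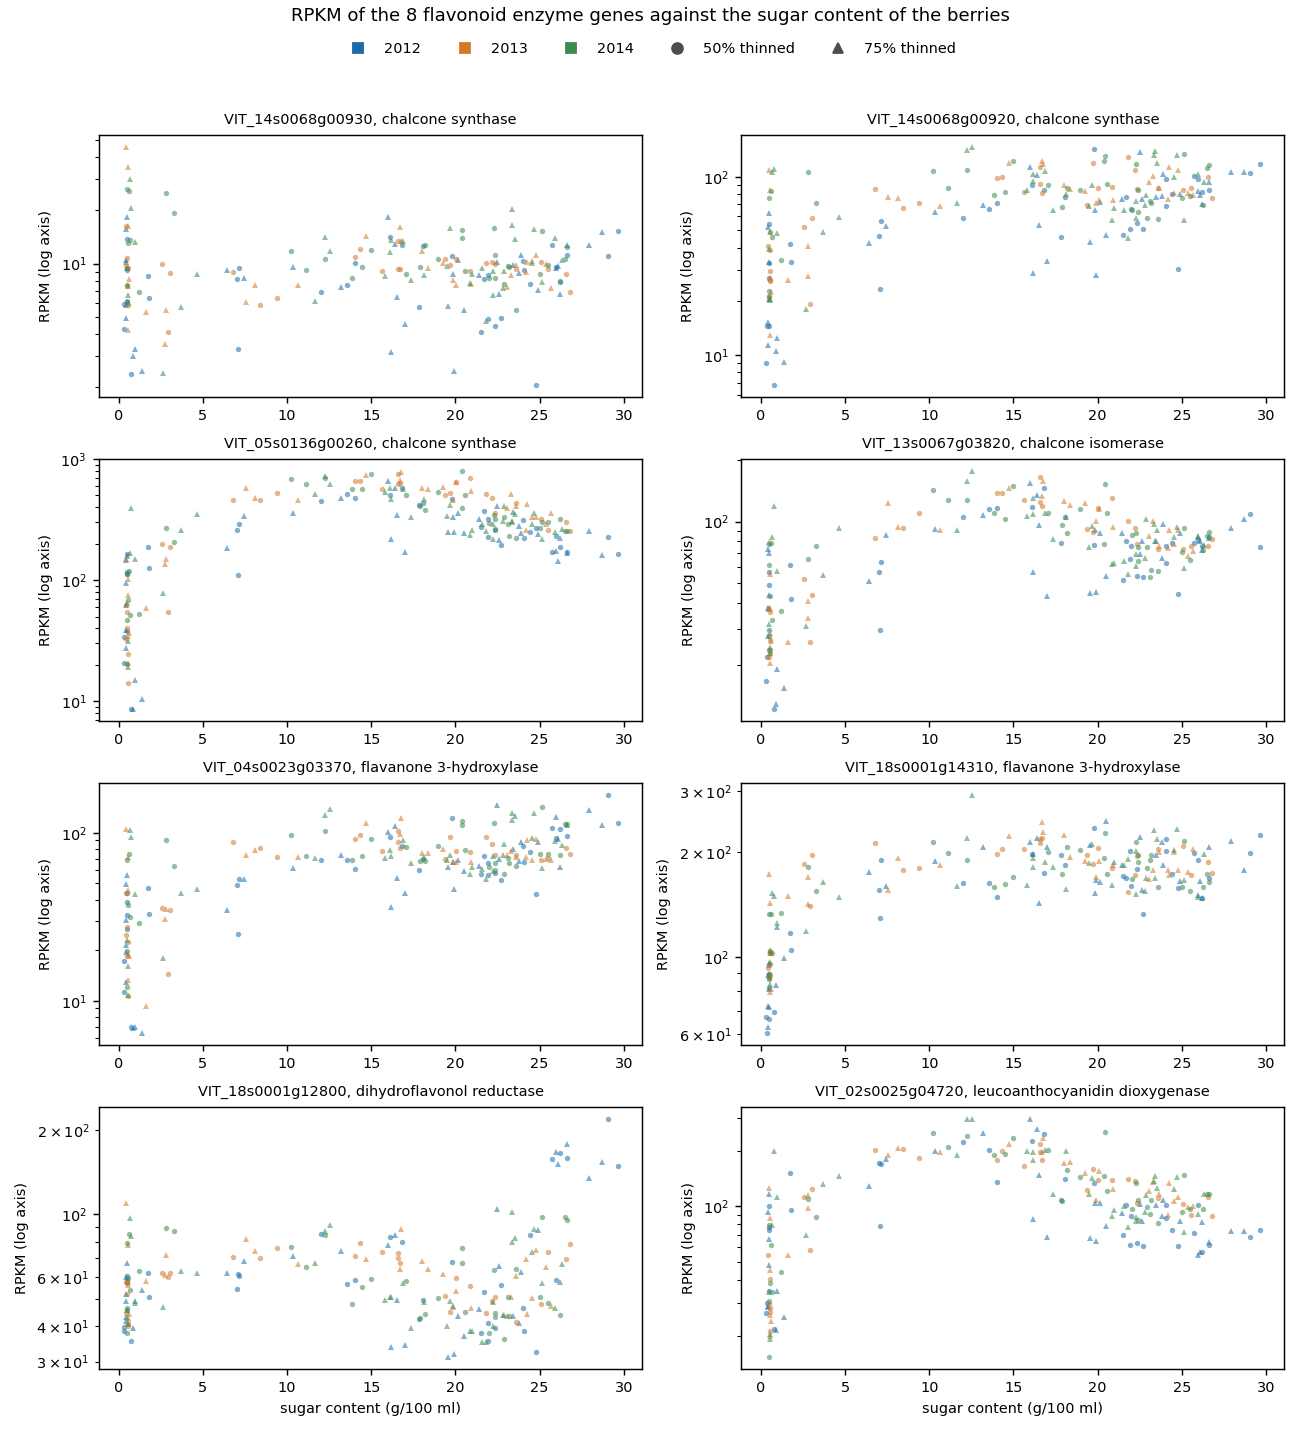
RPKM (log axis) of each enzyme gene against the sugar content of the berries in g/100 ml, with 1 point per library, colours for the season and marker shapes for the thinning intensity. VIT_05s0136g00260 peaks between 10 and 15 g/100 ml at a mean of 586 RPKM, and the values of VIT_18s0001g12800 above 25 g/100 ml are highest in 2012.

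The peak of early ripening fell on like days in the seasons. VIT_05s0136g00260 was highest on day 11 of 2012 with 541 RPKM ± 77.0 (SD, n = 6), on day 8 of 2013 with 709 ± 52.2 and on day 8 of 2014 with 643 ± 76.1. On the same days the leucoanthocyanidin dioxygenase was highest with 250 RPKM ± 26.5, 207 ± 19.9 and 247 ± 43.8, and the chalcone isomerase with 127 ± 20.4, 146 ± 12.8 and 137 ± 29.4. Across all libraries Pearson's r of log2(RPKM + 1) was 0.93 between VIT_05s0136g00260 and the isomerase and 0.92 between VIT_05s0136g00260 and the dioxygenase, and in each case the synthase was the gene nearest to the other among all genes tested. VIT_14s0068g00920 and VIT_04s0023g03370 were each other's nearest gene with r = 0.95, the highest value among the 8 genes.

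The dihydroflavonol 4-reductase had r between 0.20 and 0.50 with the other enzymes. The nearest genes outside the 8, with a mean of at least 5 RPKM, were VIT_16s0050g00910 for VIT_05s0136g00260 (r = 0.92), VIT_13s0019g04460 for VIT_04s0023g03370 (0.93) and for VIT_14s0068g00920 (0.92), and VIT_03s0088g00060 for VIT_18s0001g14310 (0.90). VIT_13s0019g04460 was also that of the chalcone isomerase VIT_13s0067g03820 (0.88), and VIT_01s0010g03510 was that of the leucoanthocyanidin dioxygenase VIT_02s0025g04720 (0.86). For the dihydroflavonol 4-reductase it was VIT_15s0046g00170 (0.77), and for VIT_14s0068g00930 it was VIT_06s0004g02620 (0.79). The likeness is over libraries that share season and stage, and nothing about the role of these IDs was used here.

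The balance within enzyme families also moved. VIT_05s0136g00260 made up 59.0% ± 12.3 (SD, n = 48 libraries) of the summed RPKM of the 3 chalcone synthases in green berries, with 30.6% to 81.4% in single libraries. On days 8 to 22 it made up 84.8% ± 2.20 (n = 48), with 79.4% to 88.7%. At the last 2 time points it was at 70.6% ± 6.68 (n = 36), with 55.0% to 81.8%. Differences of shares are means over the seasons and arms with equal weight, so they depart slightly from those between the pooled shares. The difference at onset was 26.2 percentage points and the later one -14.1 points. Both had p = 1e-05, the smallest that 100000 permutations within season and arm can give, and an adjusted p of 2.2e-05 over 9 tests of shares. At the end the share was 64.6% ± 6.09 in 2012, 77.1% ± 3.08 in 2013 and 70.1% ± 3.19 in 2014 (n = 12 each); this difference between seasons was not tested.

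VIT_14s0068g00920 made up 77.1% ± 5.19 (SD, n = 48) of the summed RPKM of the neighbouring pair in green berries and 89.3% ± 1.66 (n = 48) after onset, a difference of 11.9 points (permutation test, adjusted p = 2.2e-05). It then stood at 89.8% ± 1.43 (n = 36), a difference of 0.639 points (permutation test, adjusted p = 0.111). Of the flavanone 3-hydroxylases, VIT_18s0001g14310 fell in share from 78.0% ± 9.82 (n = 48) to 70.0% ± 2.86 (n = 48) and 65.9% ± 5.84 (n = 36). These differences were -7.68 points (permutation test, adjusted p = 2.2e-05) and -4.07 points (adjusted p = 3.6e-05). At the last 2 time points it was 61.7% ± 4.08 in 2012, 71.9% ± 2.61 in 2013 and 64.2% ± 4.81 in 2014.

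**Figure D4:**
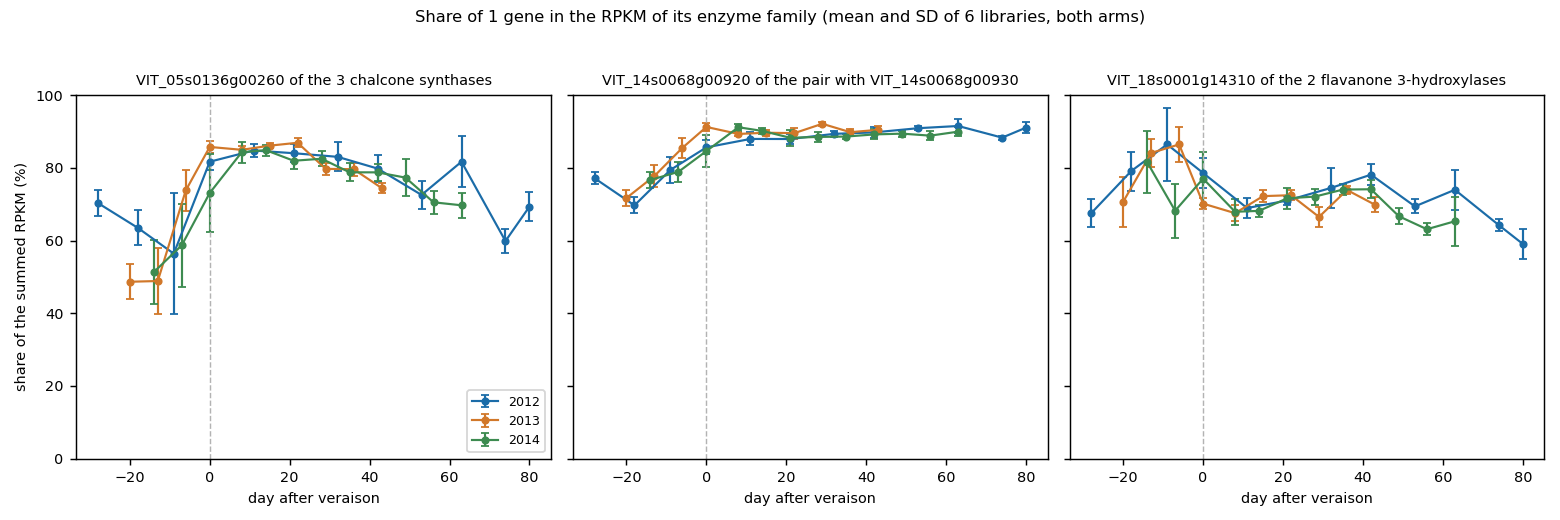
Share in percent of VIT_05s0136g00260 in the summed RPKM of the 3 chalcone synthases, of VIT_14s0068g00920 in its pair and of VIT_18s0001g14310 in the flavanone 3-hydroxylases, against the day after veraison. Points and bars are the mean and SD of 6 libraries, coloured by season; the first share lies between 79.4% and 88.7% in every library of days 8 to 22.

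Towards harvest the enzymes parted. Comparing the last 2 time points with days 8 to 22, 3 genes were lower, against 37.8% of all genes, and 2 were higher, against 47.4%. The median of the 8 log2 changes was 0.05 and that of all genes was 0.05. The shares called are near the background, so the genes are described by their own courses. In 2012, 3 were lower (34.3% of all genes) and 3 higher (46%), in 2013 3 were lower (35.1%) and none higher (36.5%), and in 2014 3 were lower (31.3%) and 2 higher (45.8%). In 2013, 9 of the 12 late libraries are of the second form, and none of the early ones. A fit that includes the form called 5 genes lower in 2013. The share of all genes under that fit is not given, so the 35.1% is not its background. Its coefficient of the form rests on 2 cells before veraison, so it is no check on ripe berries.

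The genes that fell were those with the early peak. VIT_05s0136g00260 ran from 143 to 470 RPKM (median 290, n = 36) at the last 2 time points. These lay below all early libraries of the season in 10 of 12 cases in 2012, 12 of 12 in 2013 and 11 of 12 in 2014. The log2 change was -1.01 (SE 0.12, adjusted p = 2.31e-14 in limma). The leucoanthocyanidin dioxygenase VIT_02s0025g04720 ran from 54.4 to 147 RPKM (median 106), a change of -0.91 (SE 0.08, adjusted p = 5.5e-20 in limma), and the isomerase VIT_13s0067g03820 from 58.2 to 109 (median 79.2), a change of -0.54 (SE 0.08, adjusted p = 5.14e-11 in limma). By season the dioxygenase changed by -1.34, -0.70 and -0.69 in 2012, 2013 and 2014. The F test of this difference had an adjusted p of 0.00399 in limma, and 0.0832 without replicate 3.

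The dihydroflavonol 4-reductase VIT_18s0001g12800 went the other way, with 41.4 to 219 RPKM (median 79.2, n = 36) and a log2 change of 0.49 (SE 0.06, adjusted p = 7.84e-13 in limma). The seasons differed (F test, adjusted p = 2.71e-12 in limma; 69.9% of all genes passed this test). In 2012 the change was 1.17 (SE 0.11), and 11 of 12 late libraries lay above every early one. It was -0.10 (SE 0.10, adjusted p = 0.406 in limma) in 2013 and 0.38 (SE 0.10, adjusted p = 0.000410 in limma) in 2014, where 4 of 12 late libraries lay above every early one. The call of 2014 was lost with median ratio scaling (adjusted p = 0.0617) and without replicate 3 (0.0528).

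VIT_04s0023g03370 ran from 66.1 to 168 RPKM (median 106, n = 36) and changed by 0.28 (SE 0.09, adjusted p = 0.00424 in limma), with 0.64, -0.18 and 0.38 in 2012, 2013 and 2014 (F test, adjusted p = 0.00285). Its mean change missed the threshold with median ratio scaling (0.14, adjusted p = 0.153) and with the second form as a covariate (0.04, adjusted p = 0.768).

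The other 3 genes did not pass the test. VIT_14s0068g00920 had a log2 change of 0.19 (SE 0.10, adjusted p = 0.0647 in limma), VIT_14s0068g00930 one of 0.08 (SE 0.09, adjusted p = 0.395 in limma) and VIT_18s0001g14310 one of 0.02 (SE 0.04, adjusted p = 0.591 in limma). The last became -0.12 (adjusted p = 0.00575) with median ratio scaling and 0.10 (adjusted p = 0.0186) with quantile normalization, and VIT_14s0068g00930 was -0.04 with the former.

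The late rise of the dihydroflavonol 4-reductase VIT_18s0001g12800 in 2012 had its largest step between days 63 and 74. On day 63 it stood at 39.3, 84.2 and 32.3 RPKM in the 50% arm and at 31.2, 88.0 and 31.9 in the 75% arm (replicates 1 to 3). On day 74 the 6 libraries held 149 to 178 RPKM (median 156), without overlap. Replicate 2 of both arms was the high library on day 63. Sugar on that day was 22.33, 24.44 and 24.78 g/100 ml at 50% and 19.55, 24.92 and 19.90 at 75%. The log2 change was 1.75 (SE 0.16, adjusted p = 3.66e-19 in limma).

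In the same interval VIT_14s0068g00930 changed by 1.31 (SE 0.24), VIT_14s0068g00920 by 0.97 (SE 0.25), VIT_04s0023g03370 by 0.79 (SE 0.24) and the isomerase VIT_13s0067g03820 by 0.55 (SE 0.20), which makes 5 of 8 higher against 36.4% of all genes. Without replicate 3, 2 were called. The leucoanthocyanidin dioxygenase VIT_02s0025g04720 had -0.04 (SE 0.22, adjusted p = 0.908 in limma) and VIT_05s0136g00260 had -0.63 (SE 0.30, adjusted p = 0.0659 in limma).

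On day 80 of 2012 replicate 2 of both arms stood apart again. The dihydroflavonol 4-reductase VIT_18s0001g12800 held 67.5 to 104 RPKM in these libraries and 135 to 219 in the other 4. VIT_05s0136g00260 held 408 to 470.0 RPKM there and 174 to 256 in the others, and the leucoanthocyanidin dioxygenase VIT_02s0025g04720 102 to 133 against 54.4 to 73.1. The berries of these libraries held 19.78 to 22.49 g/100 ml of sugar, and those of the other 4 held 25.98 to 29.07. For the dihydroflavonol 4-reductase, replicate 2 lay between the other replicates of day 63 and those of day 80 on both days. Whether libraries of these days were exchanged was not tested. The part of sugar in these values was not tested either. Without replicate 2, 4 genes were called in late ripening of 2012 in place of 6, 5 were called from day 63 to 74, and the late change of the dihydroflavonol 4-reductase in 2012 was 1.37 (adjusted p = 4.37e-18 in limma).

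Another interval, day 49 to 56 of 2014, was chosen after the values were seen. Its count of calls is thus no independent check on 2012. Mean sugar had gone from 22.7 to 27.2 between days 63 and 74 of 2012 (units as above). From day 49 to 56 of 2014 it went from 24.7 to 23.2. The dihydroflavonol 4-reductase VIT_18s0001g12800 went from 43.8 to 51.0 RPKM (median 45.2) to 63.5 to 102 RPKM (median 85.5), without overlap, a log2 change of 0.85 (SE 0.16, adjusted p = 1.05e-05 in limma). VIT_14s0068g00930 changed by 0.70 (SE 0.24), VIT_14s0068g00920 by 0.68 (SE 0.25), VIT_04s0023g03370 by 0.68 (SE 0.24) and VIT_18s0001g14310 by 0.46 (SE 0.10), so that 5 of 8 were higher against 14.8% of all genes. The leucoanthocyanidin dioxygenase VIT_02s0025g04720 was not called, with 91.4 to 114 RPKM (median 95.1) before and 125 to 147 RPKM (median 140) after, without overlap. VIT_05s0136g00260 and the isomerase VIT_13s0067g03820 were not called either, and their ranges overlapped. Leaving out any 1 of the replicates left 2 calls. In 2013, from day 36 to 43, the dihydroflavonol 4-reductase alone was called higher (8.7% of all genes), with 41.4 to 60.3 RPKM (median 49.2) before and 65.3 to 78.6 RPKM (median 71.5) after, a log2 change of 0.53 (SE 0.16, adjusted p = 0.0113 in limma). That call was lost without any 1 of the replicates and with the form covariate.

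Season differences in ripe berries were taken over the last 2 time points, 12 libraries each. These fell latest after veraison in 2012 and earliest in 2013, so season and day cannot be told apart in these tests. The dihydroflavonol 4-reductase VIT_18s0001g12800 held 67.5 to 219 RPKM (median 156) in 2012, 41.4 to 78.6 (median 62.8) in 2013 and 43.5 to 102 (median 81.1) in 2014. The log2 difference was -1.27 (SE 0.11, adjusted p = 1.83e-20 in limma) for 2013 minus 2012 and -0.87 (SE 0.11, adjusted p = 1.01e-11 in limma) for 2014 minus 2012. Adding the second form as a covariate gave -1.64 and -1.36, both past the threshold. The leucoanthocyanidin dioxygenase VIT_02s0025g04720 was the reverse, with medians of 69.6, 104 and 129 RPKM in 2012, 2013 and 2014. Its differences from 2012 were 0.51 (SE 0.15, adjusted p = 0.00249 in limma) and 0.84 (SE 0.15, adjusted p = 9.17e-07 in limma), but -0.11 and 0.02, neither past the threshold, with the form in the fit. The form and the season cannot be told apart in 2014. The coefficient of the form comes from libraries before veraison in 2013, so these fits are no check on ripe berries. The last days of 2013 and 2014 each have a close day in 2012, where the dihydroflavonol 4-reductase had the lower mean. It held 37.4 RPKM ± 2.34 (SD, n = 6) on day 42 of 2012 and 71.8 ± 4.70 on day 43 of 2013. On day 63 it held 51.1 ± 27.2 in 2012 and 76.3 ± 20.2 in 2014. These differences were not tested.

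VIT_05s0136g00260 was likewise higher in 2013, by 0.62 (SE 0.22, adjusted p = 0.00839 in limma), and in 2014, by 0.53 (SE 0.22, adjusted p = 0.0293 in limma), than in 2012. With the form in the fit the differences were 0.06 and -0.22, neither past the threshold. Both calls were also lost without replicate 1 and without replicate 3. VIT_04s0023g03370 was lower in 2013 than in 2012, at -0.67 (SE 0.17, adjusted p = 0.000323 in limma).

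In all, 2 genes were higher and 2 lower when 2013 was set against 2012 (28.8% and 34.6% of all genes), and 2 higher and 1 lower for 2014 against 2012 (26.8% and 28.7%). Between 2014 and 2013, 3 were higher in 2014 (17% of all genes): VIT_14s0068g00930 by 0.49 (SE 0.17), VIT_04s0023g03370 by 0.58 (SE 0.17) and the dihydroflavonol 4-reductase VIT_18s0001g12800 by 0.40 (SE 0.11). None of these 3 passed with the form in the fit or without replicate 3. Without replicate 3, 2 genes in all differed between 2013 and 2012.

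The seasons were also set side by side at like sugar. In berries of 25 to 30 g/100 ml, the dihydroflavonol 4-reductase had 146 RPKM ± 45.8 (SD, n = 12 libraries) in 2012, 63.7 ± 13.2 (n = 6) in 2013 and 67.2 ± 23.5 (n = 9) in 2014. In berries of 20 to 25 g/100 ml it had 52.4 ± 20.0 (n = 19), 53.0 ± 9.59 (n = 15) and 55.1 ± 19.6 (n = 24). The leucoanthocyanidin dioxygenase at 25 to 30 g/100 ml had 69.9 ± 13.2, 98.6 ± 8.67 and 105 ± 21.3 RPKM in the 3 seasons. These are descriptions of classes with different days and were not tested.

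The study's treatment, 75% against 50% of the crop removed, gave no call among the 8 genes in limma on the mean of the seasons, where 0.809% of all genes were called. None had an unadjusted p under 0.05, which 17.1% of all genes had. The log2 differences, 75% minus 50%, ran from -0.03 for VIT_05s0136g00260 to 0.03 for VIT_18s0001g14310. The 95% confidence interval was widest for the former, from -0.19 to 0.13, and narrowest for the latter, from -0.02 to 0.08. For the dihydroflavonol 4-reductase VIT_18s0001g12800 it ran from -0.09 to 0.06 and for the leucoanthocyanidin dioxygenase VIT_02s0025g04720 from -0.09 to 0.14.

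No gene was called in any single season, with differences from -0.20 to 0.10 (0.00481% of all genes in 2012, 0.948% in 2013 and 0.0193% in 2014), and none in the F test of a difference between the seasons (0%). In the 65 libraries of 11 time points whose year tag in the labels goes with the season, the differences ran from 0.24 to 0.49 and VIT_18s0001g14310 was called (0.25, adjusted p = 0.0115 in limma). Of all genes, 0.799% were called in these libraries. In 2013 day -20 is the only time point with both arms among them. The whole coefficient of that season thus comes from this day. The differences on that day ran from 0.61 to 1.49, and its calls were lost without replicate 2 or without replicate 3. The shares within enzyme families differed between the arms by 0.00595, 0.0433 and 0.55 percentage points (permutation tests within time points, adjusted p from 0.475 to 0.994).

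At single time points 13 of 272 tests passed the threshold, all of them on or before day 0, against 1.16% of the tests of all genes. From day 8 on, 0 of 184 tests did in limma, against 1.01% of those of all genes, so that the absence of calls is near the background. None of the 184 had an unadjusted p under 0.05, which 5.56% of the tests of all genes had at these time points. The log2 differences lay between -0.58 and 0.28. The lower end was VIT_05s0136g00260 on day 28 of 2014, -0.58 (SE 0.43, adjusted p = 0.485 in limma), where the chalcone isomerase VIT_13s0067g03820 was at -0.53 (SE 0.28, adjusted p = 0.259 in limma). The fit shares 1 estimate of the spread over all cells, while the scatter between replicates was larger before day 8, as given above. Tests from day 8 on thus carry a wider spread than their own replicates show, and earlier tests a narrower one. The 0 of 184 and the 13 early calls both depend on this. On day 28 of 2014 VIT_05s0136g00260 held 411 to 537 RPKM at 50% and 293 to 335 at 75%. The isomerase held 95.9 to 115 and 64.1 to 82.6 RPKM. The arms did not overlap in either gene, nor did they on day 35 of 2014. On day 28 those of the dihydroflavonol 4-reductase did not either (43.0 to 50.4 and 35.2 to 40.0 RPKM), and those of the remaining genes overlapped. These days were picked by their values, and the share of all genes without overlap was not counted. The ranges are a description and no test of thinning.

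On day -9 of 2012, 3 genes were lower at 75% (0.688% of all genes were called at this time point). VIT_05s0136g00260 held 8.68, 126 and 186 RPKM at 50% and 10.5, 15.0 and 8.67 at 75%, a difference of -2.34 (SE 0.43, adjusted p = 0.000285 in limma) on the log2 scale. VIT_04s0023g03370 and the leucoanthocyanidin dioxygenase VIT_02s0025g04720 differed by -1.60 (SE 0.34) and -1.33 (SE 0.31). The 50% arm itself spanned both levels, and no gene was called without replicate 2 or without replicate 3, but 5 were without replicate 1. Sugar was 0.75, 1.78 and 1.72 g/100 ml at 50% and 1.37, 0.94 and 0.87 at 75%.

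On day -20 of 2013, 7 genes were higher at 75% (1.78% of all genes), all but the dihydroflavonol 4-reductase. VIT_05s0136g00260 held 32.5, 61.9 and 24.4 RPKM at 50% and 75.6, 149 and 102 at 75%, without overlap, a difference of 1.49 (SE 0.43, adjusted p = 0.0424 in limma). VIT_18s0001g14310 held 87.0, 93.1 and 88.5 against 104, 173 and 143 RPKM, a difference of 0.61 (SE 0.14, adjusted p = 0.00537 in limma). The highest library, replicate 2 at 75%, is of the second form. No gene was called without replicate 2, without replicate 3 or with the form as a covariate. Sugar was between 0.42 and 0.54 g/100 ml in all 6 libraries.

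On day -7 of 2014, 2 genes were higher at 75% (2.34% of all genes). The leucoanthocyanidin dioxygenase VIT_02s0025g04720 held 61.7, 38.6 and 34.2 RPKM at 50% and 199.8, 78.9 and 112 at 75%, without overlap, a difference of 1.46 (SE 0.31, adjusted p = 0.000734 in limma), and VIT_05s0136g00260 differed by 1.49 (SE 0.43, adjusted p = 0.0357 in limma). Without replicate 1 or 2 a single gene was called, and without replicate 3 none was. On day 0 of 2014, VIT_14s0068g00930 alone was called (10.3% of all genes), with 25.1, 6.88 and 19.2 RPKM at 50% and 5.72, 2.40 and 8.70 at 75%. The difference was -1.41 (SE 0.34, adjusted p = 0.00186 in limma), the ranges overlapped, and the call was lost without replicate 1.

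**Figure D5:**
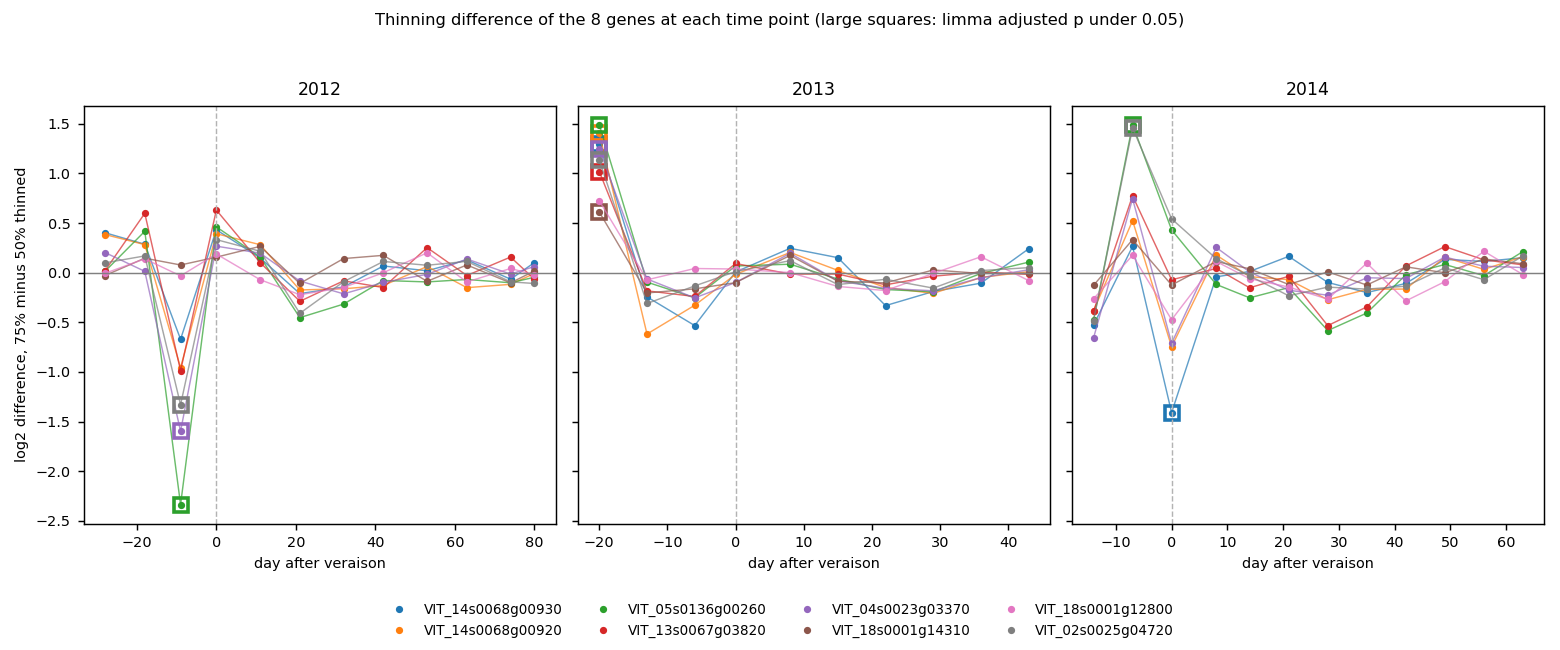
Log2 difference of RPKM + 1, 75% minus 50% thinned, of each enzyme gene at each time point of the 3 seasons, with large squares where the limma adjusted p was under 0.05. All 13 squares lie on or before day 0, and from day 8 on every point lies between -0.58 and 0.28.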

How the data were processed

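Total RNA of ground pericarp was made into non-directional TruSeq libraries, per the labels' protocols, so a gene and any antisense partner share their reads. The authors deposited RPKM values, made with TopHat2 2.0.6 and Cufflinks 2.0.2 per the submitters' processing notes; settings, build and annotation were not stated there. No read counts were used, and no counting interval was computed. Season and replicate come from titles and source names, since the year tag differs from the season for 134 libraries and goes with it for 70.

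The test was limma 3.58.1 (R 4.3.3) on log2(RPKM + 1), with a trended prior variance and Benjamini-Hochberg adjustment over all 20770 genes tested, at a threshold of 0.05. Stages were compared over the means of 68 cells with equal weight on both arms; thinning had 34 time points as a factor and 1 coefficient per season. Intervals between neighbouring days and the late comparison of seasons were added after seeing the data. Shares were tested by permutation (two-sided, 100000 resamples, Python 3.11.15, numpy 2.4.6). All 8 genes are described; of other genes, the rule takes the 2 with the highest r for each gene, of which the first is printed. The genes, lists and tests were chosen with earlier results of these data known. The fits were tested on simulated data. Alternatives were the pseudocount (0.1), the filter, median ratio scaling, quantile normalization, the replicate block, each replicate left out, the form, the year tag, sugar as a covariate and some time points left out. Other pathway enzymes give no value, because 0 of 29971 IDs had a match in the reference.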

Additional observations from a re-analysis of the deposited data

Results flagged for a closer look

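In 7 results of the 8 genes the change differed between the seasons by limma's moderated F test. For late ripening these were the dihydroflavonol 4-reductase VIT_18s0001g12800 (adjusted p = 2.71e-12), the flavanone 3-hydroxylase VIT_04s0023g03370 (adjusted p = 0.00285) and the leucoanthocyanidin dioxygenase VIT_02s0025g04720 (adjusted p = 0.00399). The first rose by 1.17 on the log2 scale in 2012 and by 0.38 in 2014 and did not pass in 2013. Of all genes, 69.9% passed this test.

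At onset the seasons differed for the flavanone 3-hydroxylase VIT_18s0001g14310 (adjusted p = 0.00146), the chalcone synthases VIT_14s0068g00930 (adjusted p = 0.00564) and VIT_14s0068g00920 (adjusted p = 0.0156), and the chalcone isomerase VIT_13s0067g03820 (adjusted p = 0.0438), where 75.8% of all genes passed. The seasons also differ in their days of sampling and in the form of the values, which is the second one in all libraries of 2014 and in 9 of the 12 late ones of 2013. With the form as a covariate 5 of the 8 genes differed between seasons at onset and 5 in late ripening. Without day 80 of 2012 and day 63 of 2014, 5 did in late ripening. The shares of all genes under these settings are not given.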

How the results depend on the processing

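Of 329 counts of called genes recomputed under an alternative, 294 stayed within 1.5 times the value given, 27 were lower and 8 higher; of 1763 results of single genes, 1588 kept direction and side of the threshold, 124 lost a call, 25 gained one and 26 changed sign. The counts of the onset and of its seasons stayed within 1.5 times under all of them. The cause of the changes below was not tested.

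With the second form as a covariate, the count of called genes was 5 for late ripening in 2013 and 5 for the late difference between seasons. It was 2 for ripe 2013 minus 2012. It was 0 for ripe 2014 minus 2013, for day 36 to 43 of 2013 and for thinning on day -20 of 2013. The shares of all genes under this fit are not given. Signs turned for VIT_14s0068g00930 (-0.063) and VIT_18s0001g14310 (-0.068) in late ripening, for VIT_02s0025g04720 in ripe 2013 minus 2012 (-0.11), for VIT_05s0136g00260 in ripe 2014 minus 2012 (-0.22), and for mean thinning of VIT_02s0025g04720 (-0.0062) and VIT_13s0067g03820 (-0.0057). With median ratio scaling the count for late ripening in 2014 was 3, and late changes were -0.044 for VIT_14s0068g00930 and -0.12 for VIT_18s0001g14310. Quantile normalization gave 7 genes at the veraison interval of 2013, for which its share of all genes is not given, and 0.0058 for mean thinning of VIT_14s0068g00930. Without 2012 day 80 and 2014 day 63, 5 genes differed between seasons in late ripening. With RPKM + 1 in the shares, thinning differences were -0.0144 and -0.0245 points for VIT_05s0136g00260 and VIT_14s0068g00920.

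In the libraries with a matching year tag, mean thinning called 1 gene and was 0.38 for VIT_04s0023g03370, 0.42 for VIT_05s0136g00260, 0.49 for VIT_14s0068g00920, 0.47 for VIT_14s0068g00930 and 0.24 for VIT_18s0001g12800. Without time points before day 8 it was -0.031 for VIT_02s0025g04720, -0.033 for VIT_13s0067g03820 and 0.0076 for VIT_14s0068g00930.

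Leaving out 1 replicate gave ranges of called genes of 3 to 6 for the green stage, 2 to 7 in 2013 and 3 to 7 in 2014; 5 to 8 for day -14 to -7 of 2014; 2 to 5 for day 63 to 74 of 2012; 0 in each case for day 36 to 43 of 2013 and 2 in each for day 49 to 56 of 2014. They were 3 to 5 for late ripening in 2014, 2 to 4 for ripe 2013 minus 2012 and 0 to 2 for ripe 2014 minus 2013. For thinning they were 0 to 5 on day -9 of 2012, 0 to 7 on day -20 of 2013, and 0 to 1 on days -7 and 0 of 2014. Green stage changes ran from -0.44 to 0.053 for VIT_02s0025g04720 and -0.16 to 0.027 for VIT_18s0001g12800, and late changes from -0.014 to 0.054 for VIT_18s0001g14310. Mean thinning ran from -0.068 to 0.016 for VIT_04s0023g03370, -0.063 to 0.018 for VIT_05s0136g00260, -0.0042 to 0.0401 for VIT_13s0067g03820, -0.026 to 0.016 for VIT_14s0068g00930 and -0.041 to 0.0097 for VIT_18s0001g12800. Thinning differences in share ran from -0.51 to 0.47 points for VIT_05s0136g00260 and -0.27 to 0.31 for VIT_14s0068g00920.

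Replicate numbers did not pair the libraries: deviations of the same number in both arms had a mean correlation of 0.0733, 34.3% of them were over 0.1, and 40.7% of libraries correlated best with their own number. With the replicate block 5 genes were called in ripe 2014 minus 2012 and 5 in ripe 2014 minus 2013, against 3 each; other counts stayed within 1.5 times.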

Other observations

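On day 0 the berries of the seasons were not equally far on. VIT_05s0136g00260 had 256 RPKM ± 93.8 (SD, n = 6) on day 0 of 2012, 493 RPKM ± 49.8 in 2013 and 203 RPKM ± 117 in 2014, with mean sugar at 7.57, 8.49 and 3.04 g/100 ml. In 2014 the libraries of that day ran from 52.3 to 352 RPKM (median 234), and the sugar of their berries from 1.20 to 4.65 g/100 ml.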
